A study of Drosophila melanogaster with 6 samples.

Results

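Insulin and TOR signalling couples growth to nutrition, and its transcripts were followed here through 9 genes of the pathway in fly hindguts that carried an active Ras oncogene. The genes were taken by name, with earlier results of these data known, and comprise *ImpL2*, *InR*, *chico*, *Pi3K92E*, *Akt*, *foxo*, *Thor*, *Tor* and *S6k*, 9 of the 17617 genes listed for each library. All 9 carried a value in every library and all 9 could be tested. The study compared 3 libraries of RasV12 hindguts (U-RasV12 together with byn-G4, tub-G80ts and U-gfp) with 3 libraries of control hindguts (byn-G4, tub-G80ts and U-gfp alone). In both genotypes *byn-Gal4* drives GFP in hindgut enterocytes and tub-G80ts, a temperature-sensitive repressor, holds Gal4 silent until the flies are warmed. In RasV12 hindguts the same driver also expresses RasV12, a form of the small GTPase Ras that stays switched on. Adult flies raised at 18°C were held at 29°C for 7 days before dissection, and each library came from a pool of hindguts, so that single flies cannot be seen. The labels call the sampled cells enterocytes and muscle, so a value sums the epithelium that carried the transgene and the muscle that did not.

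In *Drosophila*, insulin-like peptides bind the insulin receptor InR, and the substrate protein Chico passes the signal to PI3-kinase, whose catalytic subunit is Pi3K92E, and on to the kinase Akt. Akt keeps the transcription factor FOXO out of the nucleus and relieves the inhibition of Tor, the kinase at the core of the TOR complexes. Active Tor phosphorylates S6k and the translational repressor 4E-BP, the product of *Thor*. ImpL2 is a secreted binding protein that captures insulin-like peptides and dampens the pathway from outside the cell. *Thor* and *InR* are both known in flies as genes that FOXO switches on. Most of this control acts on proteins and their phosphorylation, which RNA libraries do not measure.

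The values are normalized counts, that is, reads per gene that appear to have been multiplied by 1 factor for each library and rounded. Library totals lay between 997131 and 1031380 in RasV12 and between 932389 and 1011488 in control hindguts. The factors were estimated from which whole numbers each library skips or repeats and correspond to 989371 to 1401646 reads in RasV12 and 686471 to 1049279 reads in control libraries, so the control libraries were on the whole shallower. The 9 genes rested on about 5.2 to 380.4 reads per library. No 2 libraries of a genotype agreed within sampling noise (chi-square per degree of freedom of 7.93 or more). Control replicate 3 was the least like its group. Its Pearson r with the other control libraries was 0.832 and 0.869 on the log2 scale, against 0.895 to 0.918 for the other pairs of a genotype. Nothing in the labels says that replicates were separate cultures or crosses, so p-values measure only the spread between these pools. *Ras85D*, the endogenous gene of the oncogene, had 85, 96 and 105 normalized counts in RasV12 against 55, 48 and 54 in control hindguts (log2 fold change 0.85, limma, adjusted p = 0.0455). Whether these reads came from the transgene or from the endogenous gene cannot be told apart. The 10 markers of visceral muscle summed to between 3393 and 3736 in RasV12 and between 9432 and 10847 in control hindguts. Of these markers 9 of 10 fell, and the list had a median log2 fold change of −1.54 with a range from −2.30 for *Tm2* to −0.65 for *bt*. In a bulk sample fewer muscle cells and less RNA per muscle cell cannot be told apart. Of 5 hindgut genes *drm* rose (log2 fold change 2.45, limma, adjusted p = 7.47e-05), *byn*, whose regulatory region drives the transgene, fell by 1.82 on the log2 scale (limma, adjusted p = 0.00153), and *otp* fell by 1.34 (limma, adjusted p = 0.0191), and every one of the 5 was present in both genotypes.

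On the BDGP6.54 annotation, which uses dm6 coordinates, *ImpL2* (FBgn0001257) lies on chromosome 3L from 4224006 to 4236147. *InR* (FBgn0283499) lies on 3R from 21570248 to 21619321, *Pi3K92E* (FBgn0015279) on 3R from 20628972 to 20634732, *Akt* (FBgn0010379) on 3R from 16099228 to 16105670 and *foxo* (FBgn0038197) on 3R from 14056945 to 14087978. *chico* (FBgn0024248) lies on 2L from 10242512 to 10247078, *Thor* (FBgn0261560) on 2L from 3478434 to 3479612, and *Tor* (FBgn0021796, named *mTor* in the annotation) on 2L from 13004480 to 13013197. *S6k* (FBgn0283472) lies on 3L from 5797549 to 5810931. The libraries read the 3′ end of each transcript. Within the 300 bases before an annotated transcript end, only *ImpL2* and *chico* shared their position with another gene. An antisense RNA gene lies opposite the end of *chico* and was listed at 0 in every library. *CG46460* lies on the strand of *ImpL2* over one of its ends and has no line of its own in the files. Reads of *CG46460* at that end cannot be told apart from those of *ImpL2* here.

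Against this background the 9 genes did not move as a block. In RasV12 hindguts 1 of the 9, *ImpL2*, rose and 3, *foxo*, *Thor* and *S6k*, fell at an adjusted p under 0.05 (limma on log2(value + 1), Benjamini-Hochberg over 7155 genes). Over all genes tested the same rule called 16.7% of genes, 9.04% higher and 7.7% lower in RasV12 hindguts. The other 5 genes, *InR*, *chico*, *Pi3K92E*, *Akt* and *Tor*, did not pass. The RasV12 and control libraries did not overlap in 4 of the 9 genes, the same 4, against 32.9% of all genes tested. By the thresholds the study used (log2 fold change beyond 1 in either direction at an unadjusted p under 0.05), 3 of the 9 were called (*ImpL2*, *foxo* and *Thor*), against 22.2% of all genes. The median log2 fold change was −0.46 over the 9 genes and 0.02 over all genes tested. With 3 libraries on each side the two-sided exact permutation test has a smallest possible p of 0.1, which the 4 genes reached. The rise of *ImpL2* held under every alternative that was run. The number of genes that fell was 0 without RasV12 replicate 2 or without control replicate 2, and 1 without RasV12 replicate 1 or without RasV12 replicate 3. Calls over all genes dropped in the same fits, to 290 lower without RasV12 replicate 2, 368 without control replicate 2, 391 without RasV12 replicate 1 and 402 without RasV12 replicate 3, against 551 with all libraries. Higher calls numbered 352 without RasV12 replicate 2, 404 without RasV12 replicate 1 and 410 without RasV12 replicate 3, against 647, and lower calls numbered 364 without control replicate 1. Without control replicate 3 calls over all genes rose instead, to 692 higher and 600 lower.

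**Figure D1:**
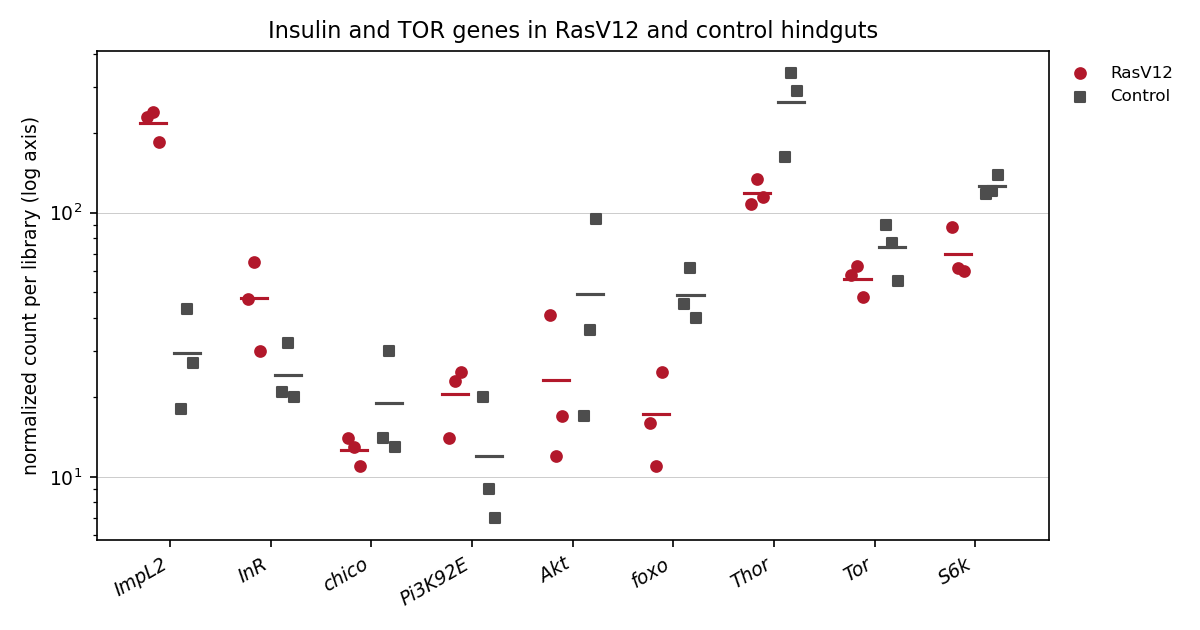
Normalized counts of the 9 genes in each library on a log axis, with RasV12 libraries as red circles, control libraries as grey squares and bars at the group means (n = 3 each). *ImpL2* sits between 185 and 240 in RasV12 against 18 to 43 in control hindguts, while *foxo*, *Thor* and *S6k* lie lower in all RasV12 libraries than in any control library.

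*ImpL2* showed the largest change of the 9 genes. It had 230, 240 and 185 normalized counts in RasV12 hindguts against 18, 43 and 27 in control hindguts. The RasV12 libraries were alike and all stood far above the highest control library. The means were 218 ± 29.3 in RasV12 and 29.3 ± 12.7 in control hindguts (SD, n = 3 each). The log2 fold change was 2.93 (standard error 0.33, 95% interval 2.23 to 3.63, limma, adjusted p = 4.71e-05), a 7.62-fold rise. With a library left out in turn it stayed between 2.63 and 3.24, with a highest adjusted p of 0.00127. Among genes with any value, *ImpL2* stood at the 94.4th percentile of mean level in RasV12 hindguts and at the 73.2nd percentile in control hindguts. The gene first became known as an ecdysone-inducible gene, and in flies with gut tumours its product is known as a tumour-derived signal that acts on other tissues. Blood cells and fat body are other tissues that a dissected hindgut could carry along. The 5 hemocyte markers summed to between 2 and 4 in RasV12 and between 1 and 9 in control hindguts, with *NimC1*, *eater* and *He* at 0 in every library. *Hml* had 1 in every RasV12 library and 0 in every control library. *Pxn* had 1, 3 and 1 in RasV12 hindguts against 4, 1 and 9 in control hindguts, and both were too low to be tested. The 4 matched fat body markers summed to between 51 and 206 in RasV12 and between 112 and 332 in control hindguts, nearly all of it *apolpp*, and *Fbp1* was at 0 in every library. The 7 midgut markers summed to between 126 and 211 in RasV12 and between 15 and 135 in control hindguts, mostly *alphaTry*. Among them *GATAe*, a midgut transcription factor, had 26, 11 and 33 in RasV12 hindguts against 8, 8 and 1 in control hindguts, without overlap (log2 fold change 2.03, limma, adjusted p = 0.0532), while *betaTry*, *lambdaTry* and *LManV* were at 0 in every library. *Npc1b* went the other way, at 0 in every RasV12 library against 1, 9 and 1 in control hindguts, too low to be tested. *LManVI* had 1 in control replicate 1 and 0 elsewhere. The part of blood cell, fat body or midgut RNA, or of reads from the overlapping *CG46460*, in the rise of *ImpL2* was not tested.

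*foxo* encodes the transcription factor that insulin signalling holds back. It had 16, 11 and 25 normalized counts in RasV12 hindguts against 45, 62 and 40 in control hindguts. Every RasV12 library lay below every control library, although the level was low in both groups. The log2 fold change was −1.50 (standard error 0.39, 95% interval −2.34 to −0.65, limma, adjusted p = 0.0193), so that the level in control hindguts was 2.82-fold that in RasV12 hindguts. The adjusted p rose to 0.0871 without RasV12 replicate 2, 0.0782 without control replicate 2 and 0.0583 without RasV12 replicate 1.

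*Thor*, whose product 4E-BP binds the cap-binding factor eIF4E and blocks translation, was the most abundant of the 9 in control hindguts. It had 108, 134 and 115 normalized counts in RasV12 hindguts against 162, 338 and 290 in control hindguts. The RasV12 libraries were close to each other, and the control libraries were spread over a wider range that did not reach down to them. The means were 119 ± 13.5 in RasV12 and 263 ± 91.0 in control hindguts (SD, n = 3 each), and the log2 fold change was −1.08 (standard error 0.29, 95% interval −1.70 to −0.46, limma, adjusted p = 0.0209). Its adjusted p rose to 0.0945 without control replicate 2, 0.0719 without RasV12 replicate 1, 0.058 without RasV12 replicate 3 and 0.054 without RasV12 replicate 2.

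*S6k*, the kinase that Tor switches on to promote ribosomal protein phosphorylation and growth, had 88, 62 and 60 normalized counts in RasV12 hindguts against 118, 121 and 139 in control hindguts. The groups were apart, with means of 70.0 ± 15.6 in RasV12 and 126 ± 11.4 in control hindguts (SD, n = 3 each). The log2 fold change was −0.86 (standard error 0.27, 95% interval −1.43 to −0.28, limma, adjusted p = 0.0432). This was the least secure of the 4 calls. Leaving out any library but RasV12 replicate 1 ended it, with a highest adjusted p of 0.145 without RasV12 replicate 2. *Tor* itself had 58, 63 and 48 normalized counts in RasV12 hindguts against 90, 77 and 55 in control hindguts. These ranges overlapped, and the log2 fold change of −0.37 (standard error 0.30, 95% interval −1.01 to 0.27) did not pass (limma, adjusted p = 0.445).

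The 3 falls went in the direction of the muscle markers, and their log2 fold changes of −1.50 for *foxo*, −1.08 for *Thor* and −0.86 for *S6k* lay inside the range of those markers, from −2.30 to −0.65. That range is wide. Its upper end is *bt*, itself not called (limma, adjusted p = 0.135), so a place inside it is not a test. Whether a smaller share of muscle RNA had a part in the 3 falls was not tested. *ImpL2* rose while the muscle markers fell, and whether a smaller share of muscle RNA had a part in that rise was not tested either.

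None of the 4 genes between the receptor and Akt passed the test, and their values were low and uneven. *InR* had 47, 65 and 30 normalized counts in RasV12 hindguts against 21, 32 and 20 in control hindguts. Only RasV12 replicate 3 fell within reach of the control libraries. Its log2 fold change was 0.90 (standard error 0.38, 95% interval 0.08 to 1.72) with an unadjusted p of 0.0345 and an adjusted p of 0.131 (limma), and the adjusted p stayed between 0.0848 and 0.403 under the alternatives. *chico*, the receptor substrate, had 14, 13 and 11 in RasV12 hindguts against 14, 30 and 13 in control hindguts. Apart from control replicate 2 its values were the same to within a few counts in both genotypes, and its log2 fold change was −0.46 (95% interval −1.45 to 0.54, limma, adjusted p = 0.545). *Pi3K92E* had 14, 23 and 25 in RasV12 hindguts against 20, 9 and 7 in control hindguts, a log2 fold change of 0.83 (95% interval −0.23 to 1.88, limma, adjusted p = 0.282). Here RasV12 replicate 1 lay below control replicate 1. *Akt* was the most variable gene of the set, with 41, 12 and 17 in RasV12 hindguts against 17, 36 and 95 in control hindguts. Its log2 fold change of −0.90 had a 95% interval from −2.14 to 0.34 (limma, adjusted p = 0.32), and moved to −0.27 without control replicate 3 and to −1.48 without control replicate 1. The intervals of *Akt* and *Pi3K92E* were wide, and both included 0.

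**Figure D2:**
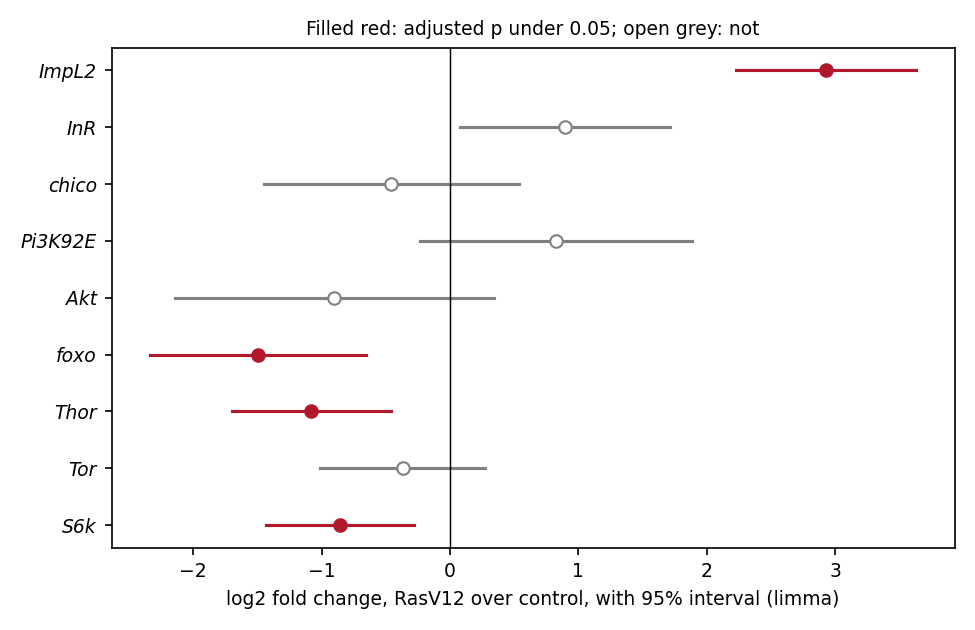
Log2 fold change of each of the 9 genes, RasV12 over control, with limma's 95% interval on the horizontal axis. Filled red points mark an adjusted p under 0.05 and open grey points the other 5 genes. *ImpL2* stands at 2.93, *foxo* at −1.50, *Thor* at −1.08 and *S6k* at −0.86.

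The order of the levels differed between the genotypes. Since 3′ libraries give about 1 read per transcript end, normalized counts can be set side by side without a length correction. In RasV12 hindguts *ImpL2* stood first with a mean of 218, followed by *Thor* with 119 and *S6k* with 70.0. These ranges did not overlap between *ImpL2* and *Thor* or between *Thor* and *S6k*. From *S6k* down through *Tor*, *InR*, *Akt*, *Pi3K92E*, *foxo* and *chico* each gene overlapped the next. In control hindguts *Thor* stood first with 263, *S6k* second with 126 and *Tor* next with 74.0. *Thor* and *S6k* were each clear of the gene below, and *Tor* overlapped *Akt*. *ImpL2* stood sixth in control hindguts with 29.3 and could not be separated from *foxo* above it or *InR* below it.

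A further 59 genes of the pathway, in 6 lists by role, set the 9 in context, and 47 of them could be tested. Of these 10 were called (21.3%, against 16.7% of all genes tested), 2 higher and 8 lower in RasV12 hindguts, with a median log2 fold change of −0.01. Over all genes 9.04% were called higher and 7.7% lower. Without control replicate 2 or with RasV12 replicate 2 or 3 left out, the number of lower calls was 4 or 5 and that of higher calls 1.

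No insulin-like peptide gene was measurable at this depth. *Ilp1*, *Ilp2*, *Ilp7* and *Ilp8* were listed at 0 in every library, and the other 4 reached at most 3 normalized counts, in *Ilp4* in RasV12 replicate 2. *Sdr*, which encodes a secreted decoy of the receptor, also reached at most 3. *conv*, which encodes the counterpart of the vertebrate acid-labile subunit that binds insulin-like peptides together with ImpL2, had 14, 18 and 32 in RasV12 hindguts against 6, 13 and 11 in control hindguts. These values did not overlap, but its log2 fold change of 1.00 did not pass (limma, adjusted p = 0.189). Of the 10 genes in this list 9 were too low to be tested, so *ImpL2* can be set beside *conv* alone. Of these 2 only *ImpL2* was called.

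Around the receptor and PI3-kinase 11 of 12 genes could be tested, with 2 lower and none higher (18.2%, close to the 16.7% of all genes), and the median was −0.01. *sgg*, the GSK-3 kinase that Akt inhibits, had 138, 97 and 83 normalized counts in RasV12 hindguts against 240, 222 and 420 in control hindguts (log2 fold change −1.44, limma, adjusted p = 0.00468, and 0.0577 without a variance trend). The study names *sgg* in its own table of altered genes, so this fall is not independent of that choice. *14-3-3zeta*, a protein that binds phosphorylated partners such as FOXO, had 596, 502 and 442 in RasV12 hindguts against 814, 878 and 831 in control hindguts (log2 fold change −0.72, limma, adjusted p = 0.0254). Leaving out RasV12 replicate 2 or 3 or control replicate 1 or 2 ended this call, with an adjusted p of up to 0.1, as did a fit without a variance trend (limma, adjusted p = 0.147). *14-3-3epsilon*, in the same list, had 581, 457 and 400 in RasV12 hindguts against 507, 603 and 451 in control hindguts. These values overlapped, and its log2 fold change of −0.13 did not pass (limma, adjusted p = 0.748). *Pi3K21B*, the regulatory subunit of PI3-kinase, had a log2 fold change of 0.77 (limma, adjusted p = 0.283), close to the 0.83 of the catalytic *Pi3K92E*. *Pdk1*, the kinase that activates Akt and S6k, had one of −1.03 (limma, adjusted p = 0.126).

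Of the TOR complex genes and their direct regulators 7 of 8 could be tested, and *rictor* alone was called (14.3%, against 16.7% of all genes). *rictor*, the subunit that defines the TOR complex acting on Akt, had 16, 4 and 4 normalized counts in RasV12 hindguts against 18, 34 and 48 in control hindguts. RasV12 replicate 1 nearly reached control replicate 1, and the log2 fold change of −2.09 (standard error 0.57, limma, adjusted p = 0.0236) lost its call without RasV12 replicate 2 or 3 or without control replicate 2 or 3, with an adjusted p of up to 0.0965, and without a variance trend (0.0697). *raptor*, which defines the TOR complex acting on S6k and 4E-BP, had a log2 fold change of 0.14 (limma, adjusted p = 0.853).

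The inputs that tell Tor of nutrients, energy and stress gave 4 calls, with 1 higher and 3 lower among 16 tested (25.0%, against 16.7% of all genes) and a median of 0.16. *chrb*, a relative of the vertebrate stress protein REDD1 that restrains Tor, had 270, 248 and 369 normalized counts in RasV12 hindguts against 51, 83 and 131 in control hindguts (log2 fold change 1.81, standard error 0.32, limma, adjusted p = 0.00182). *scyl*, its close relative, had 579, 491 and 279 in RasV12 hindguts against 242, 273 and 525 in control hindguts. These overlapped and the log2 fold change was 0.40 (limma, adjusted p = 0.449). *Sesn*, the fly Sestrin, another inhibitor of Tor and itself known as a FOXO target, went the other way, with 43, 36 and 53 in RasV12 hindguts against 104, 94 and 106 in control hindguts (log2 fold change −1.20, limma, adjusted p = 0.0105, and 0.0578 without RasV12 replicate 2).

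AMPK is the energy sensor that inhibits Tor, and its beta and gamma subunits both fell. *alc*, the beta subunit, had 45, 51 and 60 normalized counts in RasV12 hindguts against 138, 140 and 154 in control hindguts (log2 fold change −1.46, limma, adjusted p = 0.00186). *SNF4Agamma*, the gamma subunit, had 129, 114 and 105 in RasV12 hindguts against 301, 240 and 298 in control hindguts (log2 fold change −1.26, limma, adjusted p = 0.00227). Both calls held with any single library left out. The catalytic subunit *AMPKalpha* had 208, 257 and 304 in RasV12 hindguts against 396, 419 and 292 in control hindguts, which overlapped, and its log2 fold change of −0.52 did not pass (limma, adjusted p = 0.157). *Lkb1*, the kinase that activates AMPK, had −0.83 (limma, adjusted p = 0.163).

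**Figure D3:**
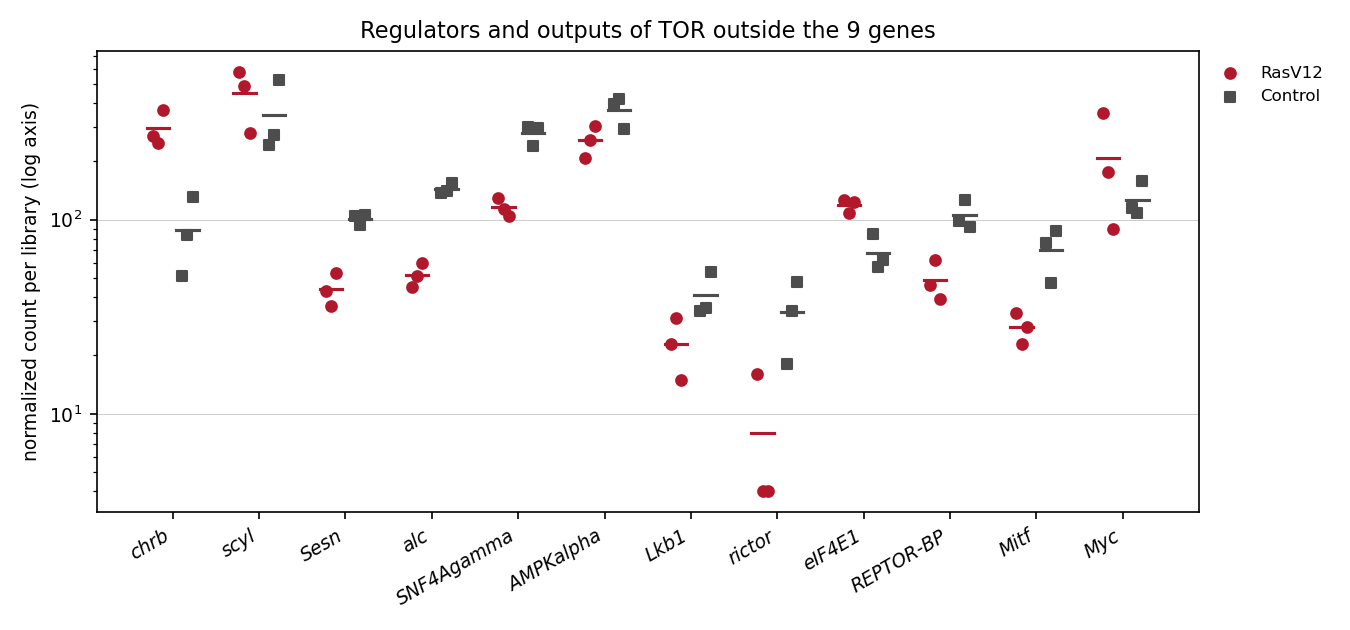
Normalized counts of 12 regulators and outputs of Tor in each library on a log axis, RasV12 libraries as red circles and control libraries as grey squares, with bars at the means (n = 3 each). *chrb* is higher in all RasV12 libraries, *alc*, *SNF4Agamma* and *Sesn* are lower in all of them, and *scyl*, *AMPKalpha* and *Myc* overlap.

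Among the outputs of Tor all 9 genes could be tested, with 1 higher and 2 lower (33.3%, against 16.7% of all genes) and a median of −0.33. *eIF4E1*, the cap-binding factor that 4E-BP restrains, had 127, 108 and 124 normalized counts in RasV12 hindguts against 84, 57 and 62 in control hindguts. The groups were apart, but its log2 fold change of 0.83 passed only narrowly (limma, adjusted p = 0.0499) and lost the call in 12 of 16 alternatives. *REPTOR-BP*, the partner of a transcription factor that acts when Tor is inactive, had 46, 62 and 39 in RasV12 hindguts against 98, 126 and 92 in control hindguts (log2 fold change −1.10, limma, adjusted p = 0.0209), and *Mitf*, the fly counterpart of the lysosomal regulator TFEB, had 33, 23 and 28 in RasV12 hindguts against 76, 47 and 87 in control hindguts (log2 fold change −1.26, limma, adjusted p = 0.0224). *REPTOR-BP* lost its call without RasV12 replicate 1 or 3 or control replicate 2 (adjusted p up to 0.0831), and *Mitf* without RasV12 replicate 2 or 3 or control replicate 1 or 3 (up to 0.0908). Without a variance trend both calls were lost as well (limma, adjusted p = 0.0724 for *REPTOR-BP* and 0.0643 for *Mitf*). *Myc*, a growth regulator, had 356, 177 and 90 in RasV12 hindguts against 115, 108 and 158 in control hindguts, so that the RasV12 libraries lay on both sides of the control libraries (log2 fold change 0.51, limma, adjusted p = 0.423). *RpS6*, the ribosomal substrate of S6k, had 884, 1021 and 908 in RasV12 hindguts against 946, 1176 and 2611 in control hindguts, with control replicate 3 far above the rest (log2 fold change −0.61, limma, adjusted p = 0.199). The 8 falls among the lists were those of *sgg*, *14-3-3zeta*, *rictor*, *Sesn*, *alc*, *SNF4Agamma*, *REPTOR-BP* and *Mitf*. All had log2 fold changes within the wide range of the muscle markers, from −2.30 to −0.65, which is not a test. The part of muscle RNA in these falls was not tested. None of the 3 FOXO targets listed beside the 9 genes, *bmm*, *Lip4* and *srl*, was called, against 16.7% of all genes tested. *Lip4* had 3, 4 and 7 in RasV12 hindguts against 13, 16 and 4 in control hindguts, and *srl* 3, 2 and 4 against 13, 2 and 0. The standard errors were 0.62 for *bmm*, 0.66 for *Lip4* and 1.01 for *srl*, so the missing calls say little. *Sesn*, a FOXO target held in another list, was called lower.

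Ratios within a library do not depend on the scaling of that library, and 4 of them were computed after the values had been seen. *Thor* over *eIF4E1*, the transcripts of the repressor and of its target, was 0.85, 1.24 and 0.927 in RasV12 hindguts against 1.93, 5.93 and 4.68 in control hindguts. The mean log2 ratio was −0.01 ± 0.29 in RasV12 and 1.91 ± 0.85 in control hindguts (SD, n = 3 each). *Thor* was already lower and *eIF4E1* already higher in every RasV12 library. The groups of this ratio therefore had to lie apart. Its exact permutation p of 0.1, the smallest possible, was fixed by those values and adds no further result. *ImpL2* over *InR* was 4.89, 3.69 and 6.17 in RasV12 hindguts against 0.857, 1.34 and 1.35 in control hindguts (exact permutation p = 0.1). Given the ranges of *ImpL2* and *InR* in each genotype, the groups of this ratio also had to lie apart. It restates the rise of *ImpL2* and adds no further result. *chrb* over *scyl* was 0.466, 0.505 and 1.32 in RasV12 hindguts against 0.211, 0.304 and 0.25 in control hindguts (exact permutation p = 0.1), and these groups did not overlap either. *Thor* over *S6k* was 1.23, 2.16 and 1.92 in RasV12 against 1.37, 2.79 and 2.09 in control hindguts, which overlapped (exact permutation p = 0.6). All 4 tests were two-sided, and none of them can pass 0.05 in a design of 3 against 3.

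**Figure D4:**
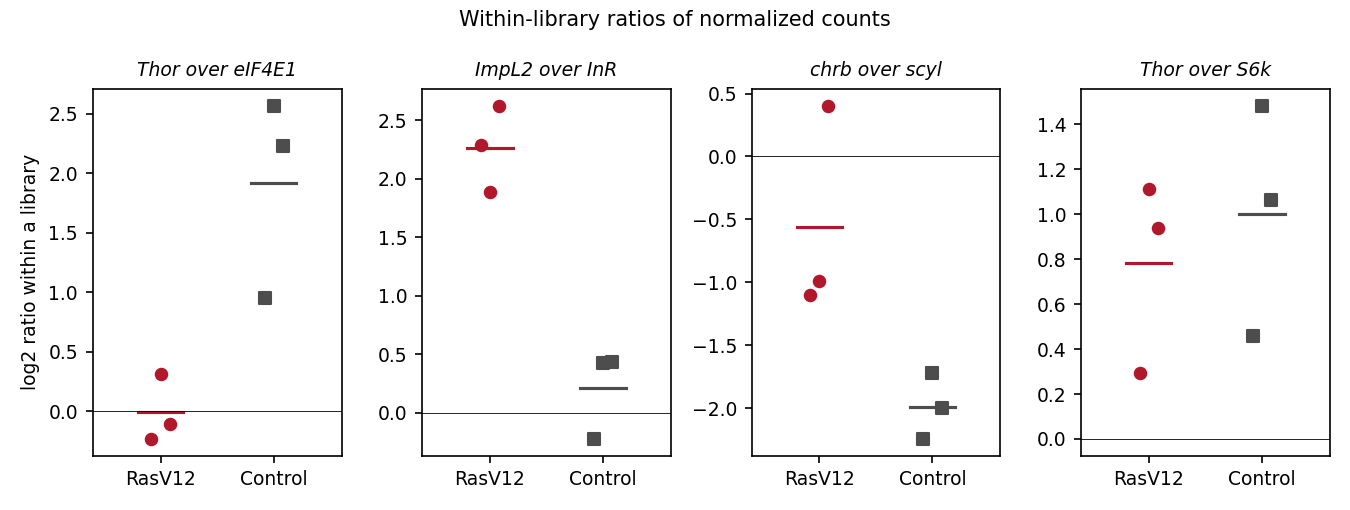
Log2 ratios of normalized counts within each library for 4 pairs of genes, RasV12 libraries as red circles on the left of each panel and control libraries as grey squares on the right, with bars at the means (n = 3 each); the vertical scales differ between panels. *Thor* over *eIF4E1* is lower, and *ImpL2* over *InR* and *chrb* over *scyl* are higher, in every RasV12 library, while *Thor* over *S6k* overlaps.

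Genes whose levels ran most closely with a member over the 6 libraries were looked up among the tested genes with a mean of at least 50. These correlations are a description, since genes with a large change between genotypes tend to correlate with each other. For *ImpL2* the nearest were *heca* (Pearson r = 0.995), *Reg-5* (0.993) and *SerRS* (0.993), all higher in RasV12 hindguts, and 244 of 2088 genes had an r above 0.9. For *InR* the nearest was *sty* (r = 0.994), the feedback inhibitor Sprouty of receptor tyrosine kinase signalling, with 118, 159 and 86 normalized counts in RasV12 hindguts against 56, 90 and 59 in control hindguts (log2 fold change 0.80, limma, adjusted p = 0.0961). Chosen as the closest pattern, *sty* shared with *InR* its highest value in RasV12 replicate 2 and its lowest RasV12 value in replicate 3. Of 2089 genes 14 had an r above 0.9 with *InR*. *CG14767* (0.954) and *CG32137* (0.947) followed, with the same order of RasV12 libraries. For *foxo* the nearest were *aralar1* (0.998), a mitochondrial carrier, *Men* (0.994), malic enzyme, and *CG43078* (0.989). For *Thor* they were *Aldh-III* (0.994), *CG3348* (0.992) and *fmt* (0.987), and for *S6k* they were *Lis-1* (0.995), *Idh3a* (0.992) and *wrd* (0.991). *aralar1*, *Men*, *CG3348*, *Idh3a* and *wrd* were lower in RasV12 hindguts at an adjusted p under 0.05 (limma).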

How the data were processed

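RNA of pooled hindguts was made into QuantSeq 3′ libraries and sequenced on an Ion Proton. The authors aligned reads to dm6 with HISAT2, passed unmapped reads to Bowtie2 and analysed counts per gene through metaseqR2 with DESeq. They ran metaseqR2 with its utr parameter and, before testing, filtered genes on reads, length and read density. The deposited files still hold genes with no reads. Versions are not given in the sources used here, nor whether counting used strand. The deposited score of a gene, called a normalized count here, behaves as its read count multiplied by a library factor and rounded, which was inferred from the values. No count model was run on it. The members and lists were chosen with earlier results of these data known.

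Values of all 6 libraries were compared with limma 3.58.1 in R 4.3.3 on log2(value + 1), with a variance trend, two-sided, over genes above 9 in at least 1 library. Fold changes of low genes are understated on this scale. Tables used Python 3.11.15, pandas 2.3.3, numpy 2.4.6 and scipy 1.17.1, plots matplotlib 3.10.9, and names and positions Ensembl 115. The procedure was tested on simulated data. Named genes are the 9 members, genes of the fixed lists, *Ras85D*, cell type markers and, for *ImpL2*, *Thor*, *InR* and each called member, the 3 genes of most similar pattern. Alternatives were other pseudocounts, filters, scalings, variance models, a replicate block and each library left out.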

Additional observations from a re-analysis of the deposited data

How the results depend on the processing

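Each of the 9 genes was recomputed under 16 alternatives, 6 that left out a library and 10 others, and none of the 9 changed direction. *ImpL2* kept its call in all 16 (log2 fold change 2.63 to 3.24, adjusted p at most 0.00708). Without a variance trend *foxo* (−1.50, adjusted p = 0.0535), *Thor* (−1.08, 0.107) and *S6k* (−0.86, 0.115) lost theirs, so the number of members that fell was 0. *S6k* (−0.86) also lost it without a filter (0.0528) and with the replicate block (0.0697), which changed no other member's call. With a library left out, log2 fold changes ranged from −1.78 to −1.23 for *foxo*, −1.39 to −0.87 for *Thor* and −1.03 to −0.76 for *S6k*, and 0 to 2 members fell. *InR*, *chico*, *Pi3K92E*, *Akt* and *Tor* were not called under any alternative. Of the fixed lists, 1 gene rose in place of 2 with a pseudocount of 5, without a filter, with RLE factors, with library totals alone, without a variance trend, with limma-voom or with the replicate block, each time because *eIF4E1* was lost. With a library left out, 1 to 2 genes rose and 4 to 7 fell, and without a variance trend 3 fell in place of 8. Same-numbered RasV12 and control libraries did not deviate together (correlations −0.046, 0.004 and −0.012), so no shared shift was visible. Whether same-numbered pools were prepared together is not in the labels, and these correlations cannot tell.

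Low values limit precision most in control replicates 1 and 3, where 1 read is worth 1.41 and 1.34 normalized counts. The median of all genes tested lay between −0.04 and 0.04 under every setting.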
